A study of Mus musculus with 6 samples.

Results

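Chemokines are small secreted or membrane-bound proteins that attract leukocytes, and 9 chemokine genes were examined here in renal tubular epithelial cells that lack the tumour suppressor VHL. The members were the rows of the deposited count table with the symbols Cxcl1, Cxcl2, Cxcl10, Cxcl12, Cxcl16, Ccl2, Ccl5, Ccl7 and Cx3cl1, which is 9 of 46095 genes in the table. PTECs (primary renal tubular epithelial cells) had been freshly isolated from kidneys of 10-week-old mice in a C57 background, and each of the 6 libraries came from 1 mouse. All 6 mice carried Ksp-Cre, a Cdh16-cre transgene expressed in renal tubule epithelium, together with VHL fl/fl, so both groups lack VHL where Cre is active. The 3 libraries labelled VHL-KO (replicates 1, 2 and 4) came from such mice, and the 3 labelled VHL-KO;SETD2-KO (replicates 2, 3 and 4) from mice that also carried Setd2 fl/fl, a floxed allele of the H3K36 methyltransferase gene. No wild-type library and no library with Setd2 deleted alone was analysed here, and either preparation may hold cells in which Cre was not active. The comparison asks whether deletion of Setd2 in addition to VHL goes with a change in chemokine transcripts of the tubule.

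A chemokine binds a receptor coupled to G proteins on the target cell and directs its migration along a gradient. Injured tubular epithelium is a known source of chemokines in the kidney. Inflammatory members such as Cxcl1, Cxcl2, Ccl2 and Ccl7 are induced rapidly through NF-kB, Cxcl10 is a classical interferon target, and Cxcl12 is a homeostatic chemokine that is also known as a hypoxia-responsive gene. Cx3cl1 and Cxcl16 are made as transmembrane proteins, and the metalloproteases Adam10 and Adam17 release their soluble forms.

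The libraries held 11168552 to 17883466 counts, and 3 counts, the smallest signal taken as detectable, corresponded to 0.159 to 0.281 CPM (counts scaled by the TMM-adjusted library size). The floor reflects counting error alone, because PCR copies of a molecule were not told apart. Setd2 counts were 1179, 799 and 132 under the VHL-KO label and 1499, 1019 and 1429 under the VHL-KO;SETD2-KO label, so Setd2 was not lower under the label that names its deletion. For this reason every library is called here by its label alone. Counts were summed over whole genes, and reads of the floxed exons were not separated. Vhl counts were 139 to 276 and 189 to 317 under the respective labels. The library labelled VHL-KO replicate 4 stood apart, with a median Spearman correlation with the others of 0.741 across the tested genes, against 0.942 to 0.961 for the other libraries, and with 11.3% of its counts on mitochondrial genes against 25.9% to 36.4%. Replicate 3 of the VHL-KO;SETD2-KO label was the only library with Xist at more than 4 counts (11704) and with fewer than 2 counts summed over 4 Y-linked genes, while the others had 260 to 3283. By these counts it came from a female mouse and the others from males, so sex cannot be told apart from that library. Proximal tubule markers were present in every library, with a summed level of 4950 to 21910 CPM over 8 genes, and so were podocyte markers, with 1437 to 4836 CPM over 5 genes, and endothelial markers, with 1214 to 4285 CPM over 7 genes. In such bulk samples, fewer cells of a type and less RNA per cell cannot be told apart.

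No chemokine gene passed the test between the labels. Of the 9 members, 8 had enough counts for edgeR's quasi-likelihood test, and 0 of these 8 passed an unadjusted p under 0.05 with a 1.5-fold change. Over all 14611 tested genes, 2.65% were called higher and 4.68% lower by that rule. With p-values adjusted over all tested genes by the Benjamini-Hochberg method, 0 of 8 members were called, beside 0.00684% of all genes, and their adjusted p ranged from 0.626 to 0.986. DESeq2 called 0 of the 8 members as well, and 0 had an unadjusted p under 0.05 in edgeR. The estimate was positive for 1 member, Cxcl10, and negative for the other 7, with a median log2 fold change (VHL-KO;SETD2-KO over VHL-KO label) of -0.22, beside 0.01 over all tested genes. Over 15 alternatives, the signs of Cxcl10, Cxcl12 and Ccl5 stayed the same, and those of Cxcl1, Cxcl2, Cxcl16, Ccl2 and Cx3cl1 each turned in 2 or more fits. In no member did the values of one label lie entirely above or below those of the other, while 9.62% of all tested genes were higher without overlap and 11.0% lower without overlap. Without the library labelled VHL-KO replicate 4, 1 member, Cx3cl1, was called higher at the unadjusted threshold, beside 8.29% of 15000 genes called higher and 7.14% called lower. Without that library, 2 members, Cxcl10 and Cx3cl1, were higher without overlap, beside 20.5% of all genes higher and 21.2% lower without overlap, and the median log2 fold change of the members was -0.31, beside 0.04 over all genes. The libraries give room for large differences, since the 95% interval of Cxcl1 ran from -2.64 to 2.46 on the log2 scale and that of Cxcl10, the narrowest, from -0.57 to 1.31.

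**Figure D1:**
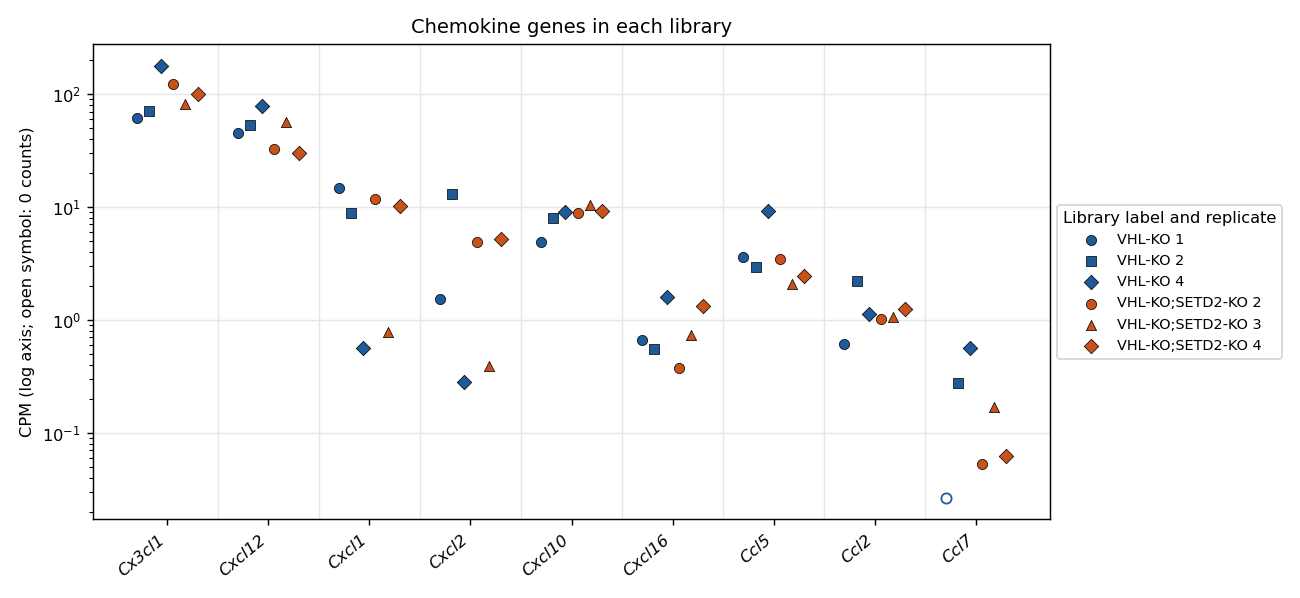
Each symbol is the level of 1 chemokine gene in 1 library, in CPM on a log axis, with libraries labelled VHL-KO in blue and those labelled VHL-KO;SETD2-KO in orange, and an open symbol below the lowest measured value for 0 counts. Cx3cl1 and Cxcl12 lie highest on this scale, which is not adjusted for gene length, and Cxcl1 and Cxcl2 each have 1 library of either label more than 10-fold below the highest library of its label.

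**Figure D2:**
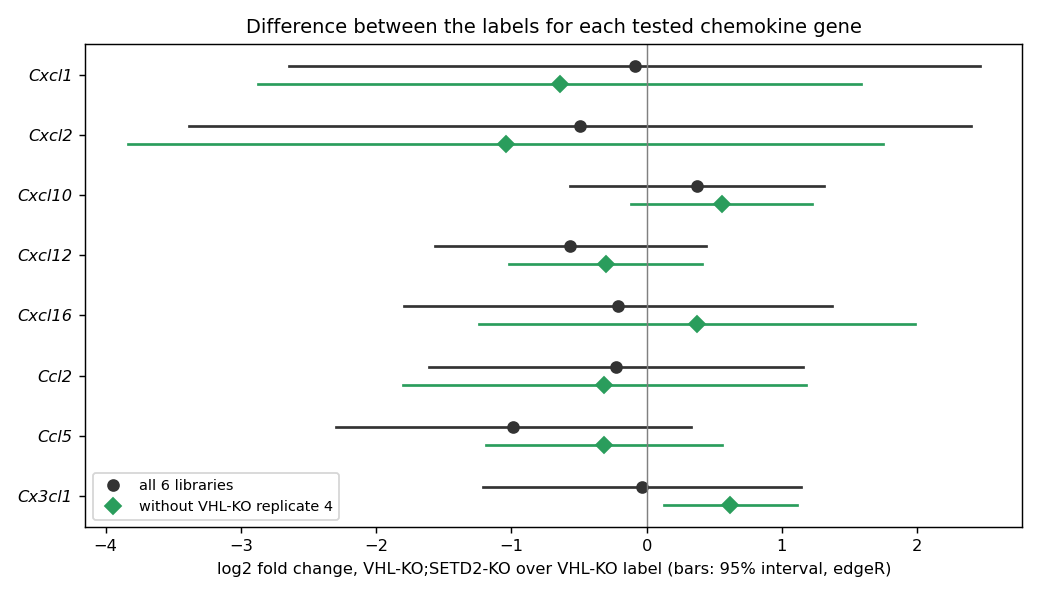
Points give the log2 fold change of each of the 8 tested chemokine genes (VHL-KO;SETD2-KO over VHL-KO label) and bars its 95% interval from edgeR, with all 6 libraries (black) and without the library labelled VHL-KO replicate 4 (green). All 8 black intervals include 0, and among the green ones that of Cx3cl1, from 0.13 to 1.11, does not.

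Cxcl1 and Cxcl2 encode the ligands of Cxcr2, the receptor that draws neutrophils into tissue. Cxcl1 (ENSMUSG00000029380.11) lies on the plus strand at chr5:90891241-90893115 (GRCm38), and Cxcl2 (ENSMUSG00000058427.10) lies 10755 bases downstream on the same strand, at chr5:90903871-90905938. Cxcl1 had 241, 95 and 6 counts in replicates 1, 2 and 4 of the VHL-KO label and 221, 14 and 161 counts in replicates 2, 3 and 4 of the VHL-KO;SETD2-KO label, an order kept for all counts and levels below. These corresponded to 14.6, 8.79 and 0.561 CPM and to 11.7, 0.788 and 10.1 CPM. Each label thus held 1 library in which Cxcl1 was almost lacking, VHL-KO replicate 4 and VHL-KO;SETD2-KO replicate 3. The labels' means were 7.99 ± 7.06 CPM and 7.54 ± 5.91 CPM (SD, n = 3 each), with a log2 fold change of -0.09 (SE 1.11, edgeR adjusted p = 0.982) and, without VHL-KO replicate 4, of -0.64 (adjusted p = 0.726).

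Cxcl2 had 25, 141 and 3 counts under the VHL-KO label, or 1.52, 13.0 and 0.281 CPM, the last at the floor. In the libraries of the other label it had 92, 7 and 83 counts, or 4.89, 0.394 and 5.21 CPM. The lowest values came from the same 2 libraries as for Cxcl1, whereas the highest came from VHL-KO replicate 2, in which Cxcl1 was below its level in VHL-KO replicate 1. The log2 fold change was -0.49 (SE 1.26, edgeR adjusted p = 0.895), with means of 4.95 ± 7.04 and 3.50 ± 2.69 CPM (SD, n = 3 each), and it was -1.04 without VHL-KO replicate 4 (adjusted p = 0.642). Of the 50-base stretches of Cxcl2 transcripts, 5.84% also occur in transcripts of other genes on either strand, and how the counting treated such reads is not given in the sources used here. For Cxcl1 the share was 0%.

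The range within a label was wider than any estimated difference between labels for this pair. Between the highest and the lowest library, Cxcl1 spanned 26.0-fold under the VHL-KO label and 14.9-fold under the VHL-KO;SETD2-KO label, and Cxcl2 spanned 46.5-fold and 13.2-fold. The pooled SD of log2 CPM within labels was 2.22 for Cxcl1 and 2.23 for Cxcl2, at the 99.6th percentile of all tested genes for both, while the other 6 tested members had SDs of 0.34 to 0.74, at percentiles of 14.0 to 53.3. Immediate-early and stress genes, a list of 15 rapidly induced transcripts such as Fos, Egr1 and Atf3, had a summed level of 2622, 3206 and 767 CPM under the VHL-KO label and 3475, 834 and 3344 CPM under the VHL-KO;SETD2-KO label. This sum was low in the same 2 libraries, and its part in the Cxcl1 and Cxcl2 values was not tested. Not every gene of the list followed the sum. Hmox1 was at 38.6, 50.7 and 131 CPM and at 35.1, 73.5 and 33.6 CPM, highest in those 2 libraries. Jund was highest in VHL-KO replicate 4, at 253 CPM. Fos itself was at 403, 473 and 2.62 CPM, and at 635, 89.3 and 542 CPM. Of the 15 genes, 0 passed the unadjusted threshold between the labels, 13 had a positive estimate and their median log2 fold change was 0.29. Without VHL-KO replicate 4 the median was -0.06 and 1 gene, Hspb1, was called higher at the unadjusted threshold (log2 fold change 1.10). In that fit 8.29% of all tested genes were called higher.

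**Figure D3:**
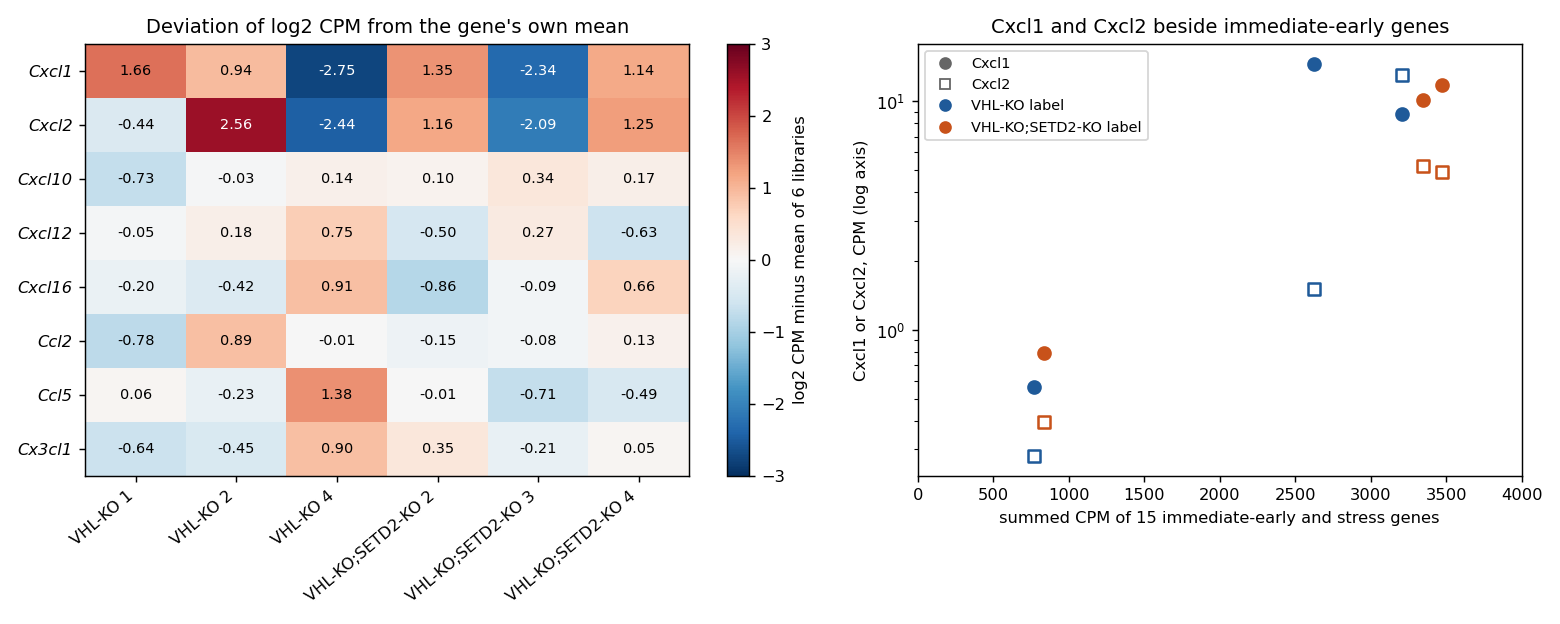
The left panel shows, for each tested chemokine gene (rows) and library (columns), log2 CPM minus the gene's own mean over the 6 libraries, and the right panel plots Cxcl1 (filled circles) and Cxcl2 (open squares) in CPM on a log axis against the summed CPM of 15 immediate-early and stress genes, by label colour. Cxcl1 and Cxcl2 lie between -2.75 and -2.09 in VHL-KO replicate 4 and VHL-KO;SETD2-KO replicate 3, the 2 libraries at 767 and 834 summed CPM.

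The upstream sequences of the 3 inflammatory members with a RefSeq promoter (GRCm38.p6) are shown because Cxcl1 and Cxcl2 were lowest in the same 2 libraries while Cxcl10 was not. In VHL-KO replicate 1 Cxcl1 and Cxcl2 differed, at 1.66 and -0.44 from their own means on the log2 scale. Any part of these sequences in the levels was not tested. Each run covers bases -220 to -31 from the RefSeq start, 5′ to 3′ on the gene's strand, at chr5:90891025-90891214 (plus strand) for Cxcl1, chr5:90903679-90903868 (plus) for Cxcl2 and chr5:92348920-92349109 (minus) for Cxcl10. Capitals mark matches, on either strand, to the NF-kB-type letters GGGANNNNCC and to the interferon-type letters TTTCNNTTTC.
Cxcl1: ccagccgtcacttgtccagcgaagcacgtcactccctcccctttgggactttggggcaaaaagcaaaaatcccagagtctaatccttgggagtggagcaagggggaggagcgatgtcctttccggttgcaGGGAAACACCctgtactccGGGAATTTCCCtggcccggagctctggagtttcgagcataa
Cxcl2: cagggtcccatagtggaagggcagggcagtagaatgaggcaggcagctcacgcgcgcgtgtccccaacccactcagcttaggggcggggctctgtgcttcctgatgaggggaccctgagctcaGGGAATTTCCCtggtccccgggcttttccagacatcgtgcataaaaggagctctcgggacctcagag
Cxcl10: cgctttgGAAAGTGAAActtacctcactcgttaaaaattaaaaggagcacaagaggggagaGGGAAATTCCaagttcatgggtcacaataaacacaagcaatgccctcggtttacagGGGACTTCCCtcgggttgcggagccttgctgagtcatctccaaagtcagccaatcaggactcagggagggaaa
Cxcl1 and Cxcl2 share the stretch GGGAATTTCC, at -71 to -62 in Cxcl1 and -97 to -88 in Cxcl2, where the match on the other strand overlaps it by all but 1 base. Cxcl1 holds a further match, GGGAAACACC, at -90 to -81. Cxcl10 holds GGGAAATTCC at -159 to -150 and GGGACTTCCC at -103 to -94, and GAAAGTGAAA, the interferon-type letters on the other strand, at -213 to -204. Among 32851 RefSeq promoters of 300 bases, 20.7% hold the first set of letters and 3.44% the second, and neither set occurs in the 300 bases of Cxcl12 or Cx3cl1. The hypoxia-response core ACGTG was found in 1 of these 5 promoters, that of Cxcl1 (on the other strand, at -196 to -192), and in 19.6% of all promoters. These are matches of letters and not measured binding sites.

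Cxcl10, which attracts activated T cells and NK cells through Cxcr3, was the steadiest member and the only one with a positive estimate. The gene (ENSMUSG00000034855.13) lies on the minus strand at chr5:92346638-92348889 (GRCm38), where exons of Art3 lie on the opposite strand, and 3.585% of its 50-base stretches also occur in transcripts of other genes. It had 81, 87 and 97 counts under the VHL-KO label, or 4.91, 8.05 and 9.07 CPM. The VHL-KO;SETD2-KO label had 166, 185 and 147 counts, or 8.82, 10.4 and 9.22 CPM. In CPM the labels met only through VHL-KO replicate 4, which lay above VHL-KO;SETD2-KO replicate 2. With means of 7.34 ± 2.17 and 9.49 ± 0.831 CPM (SD, n = 3 each), the log2 fold change was 0.37 (SE 0.41, edgeR adjusted p = 0.766). Without VHL-KO replicate 4 it was 0.55 (SE 0.27, edgeR adjusted p = 0.307), and the estimate was positive in each of 15 alternatives, from 0.08 to 0.58. Among 5 interferon-responsive transcription factors, such as Irf7 and Irf9, 0 were called, 2 had positive estimates and the median log2 fold change was -0.04. The median turned to 0.32 without VHL-KO replicate 4, and 1, Irf7, was called higher at the unadjusted threshold (log2 fold change 0.64, against -0.88 with all libraries). Without that library 8.29% of all tested genes were called higher. Irf9, a subunit of the interferon-activated complex ISGF3, was at 17.5, 20.6 and 30.4 CPM and at 27.5, 20.2 and 26.9 CPM. Cxcl9, the sister ligand of Cxcr3, was at 0.788, 0.463 and 2.06 CPM and at 0, 0.901 and 0.502 CPM, with 0 counts in VHL-KO;SETD2-KO replicate 2.

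Cxcl12, the ligand of Cxcr4 and of the scavenging receptor Ackr3, was the second most abundant member per kilobase, with all annotated exons counted in the length. The gene (ENSMUSG00000061353.11) lies on the plus strand at chr6:117168535-117181367 (GRCm38). Its counts were 741, 570 and 838 under the VHL-KO label, or 44.9, 52.7 and 78.4 CPM, and 619, 997 and 479 under the VHL-KO;SETD2-KO label, or 32.9, 56.1 and 30.0 CPM. Replicates 2 and 4 of the VHL-KO;SETD2-KO label were the lowest of the 6 libraries, and replicate 3 lay above 2 of the 3 VHL-KO libraries. Means were 58.7 ± 17.5 and 39.7 ± 14.3 CPM (SD, n = 3 each). The log2 fold change was -0.56 (SE 0.44, edgeR adjusted p = 0.682), and it was -0.30 without VHL-KO replicate 4 (edgeR adjusted p = 0.597). With sample quality weights, which lower the influence of libraries that vary more, limma-voom gave -0.59 (adjusted p = 0.040). That fit called 18.2% of all tested genes at an adjusted p under 0.05 with a 1.5-fold change.

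Cx3cl1, or fractalkine, the only ligand of Cx3cr1 and an adhesion molecule for monocytes, was the most abundant member per kilobase of exons. It lies on the plus strand at chr8:94772009-94782427 (GRCm38, ENSMUSG00000031778.13). The counts were 1011, 758 and 1912 under the VHL-KO label, or 61.3, 70.1 and 179 CPM. They were 2291, 1465 and 1584 under the VHL-KO;SETD2-KO label, or 122, 82.5 and 99.4 CPM. The highest library was VHL-KO replicate 4, and the other VHL-KO libraries were the 2 lowest of the 6. With all libraries the means were 103 ± 65.5 and 101 ± 19.7 CPM (SD, n = 3 each) and the log2 fold change was -0.03 (SE 0.51, edgeR adjusted p = 0.986), with a sign that turned when mitochondrial genes were left out of the library sizes (0.04). Without VHL-KO replicate 4 the log2 fold change was 0.62 (SE 0.20, edgeR adjusted p = 0.182), with DESeq2 it was then 0.61 (adjusted p = 0.093), and limma-voom with quality weights on all 6 libraries gave 0.68 (adjusted p = 0.019). The sign of the estimate turned in 9 of 15 alternatives, 7 of which kept that library.

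Cxcl16, the other transmembrane chemokine, is the ligand of Cxcr6 and also takes up oxidised lipoproteins. It was scarce, with 11, 6 and 17 counts under the VHL-KO label and 7, 13 and 21 counts under the VHL-KO;SETD2-KO label. These gave 0.667, 0.555 and 1.59 CPM and 0.372, 0.732 and 1.32 CPM. Both labels spanned a similar range, with a log2 fold change of -0.21 (SE 0.69, edgeR adjusted p = 0.917) and, without VHL-KO replicate 4, 0.37 (adjusted p = 0.786). The gene (ENSMUSG00000018920.11) lies on the minus strand at chr11:70453983-70459984 (GRCm38), exons of Zmynd15 lie opposite, and 16.9% of its 50-base stretches occur in transcripts of other genes, so its few counts are uncertain.

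Ccl2 and Ccl7, both ligands of Ccr2 that mobilise monocytes, lie 8258 bases apart on the plus strand of chromosome 11. Ccl2 (ENSMUSG00000035385.5) is at chr11:82035571-82037453 and Ccl7 (ENSMUSG00000035373.2) at chr11:82045712-82047525 (GRCm38). Ccl2 had 10, 24 and 12 counts under the VHL-KO label and 19, 19 and 20 under the VHL-KO;SETD2-KO label, or 0.606, 2.22 and 1.12 CPM and 1.01, 1.07 and 1.25 CPM. The lowest and the highest library were both labelled VHL-KO, and the 3 VHL-KO;SETD2-KO libraries lay between them within a 1.24-fold range. The log2 fold change was -0.23 (SE 0.60, 95% interval -1.61 to 1.15, edgeR adjusted p = 0.899), and without VHL-KO replicate 4 it was -0.31 (adjusted p = 0.807). Ccl7 had 0, 3 and 6 counts and 1, 3 and 1 counts, at or under the floor of 3 counts in all but VHL-KO replicate 4, and it did not pass the filter on low counts. No fold is given for it.

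Ccl2 and Cxcl1 were also the chemokines for which the study designed RT-qPCR primers. With that assay the study reported both as significantly higher in VHL-KO;Setd2-KO than in VHL-KO mice, together with Il1a and Il6. The age of those mice is not given with the result. In the libraries here the log2 fold changes were -0.23 for Ccl2 and -0.09 for Cxcl1, neither called, and the reason for the difference was not tested. The primer positions show which part of each transcript the assay reads. Capitals are not used, since no base is singled out.
Ccl2 forward: ttaaaaacctggatcggaaccaa
Ccl2 reverse: gcattagcttcagatttacgggt
Cxcl1 forward: ctgggattcacctcaagaacatc
Cxcl1 reverse: cagggtcaaggcaagcctc
The Ccl2 pair matched bases 351 to 471 of an 813-base GENCODE transcript, both primers in exon 3, for a product of 121 bases. The Cxcl1 pair matched bases 189 to 305 of a 953-base transcript, the forward primer in exon 2 and the reverse primer in exon 3, for a product of 117 bases.

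Ccl5 recruits T cells and monocytes through receptors that include Ccr1. It had the largest estimated difference among the members in edgeR with all 6 libraries and the label as the only factor. It did not with the replicate block, with quality weights, or without VHL-KO replicate 2, VHL-KO replicate 4 or VHL-KO;SETD2-KO replicate 3. It lies on the minus strand at chr11:83525778-83530518 (GRCm38, ENSMUSG00000035042.2). Counts were 60, 32 and 99 under the VHL-KO label and 65, 37 and 39 under the VHL-KO;SETD2-KO label. In CPM these were 3.64, 2.96 and 9.26 against 3.45, 2.08 and 2.45. VHL-KO replicate 4 was above every other library, and the other 5 libraries overlapped between labels. The means were 5.29 ± 3.46 and 2.66 ± 0.710 CPM (SD, n = 3 each) and the log2 fold change was -0.98 (SE 0.57, edgeR adjusted p = 0.626). It was -0.32 without VHL-KO replicate 4 (SE 0.36, edgeR adjusted p = 0.655). T cell markers, a list of 8, were likewise highest in VHL-KO replicate 4, with a summed level of 12.4 CPM against 4.26 to 5.65 CPM in the other libraries. Their part in the Ccl5 values was not tested.

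Per kilobase of annotated exons, the levels (median and range over the 6 libraries, in CPM per kb) set the members in an order. The length was the union of the exons of all annotated transcripts. For Cxcl1, Cxcl2 and Cxcl10 that union equals the whole gene span. It was 1875 bases for Cxcl1, against 953 for the transcript that its primers matched. The order may depend on this choice, and it was not computed with transcript lengths. Cx3cl1 led with 23.1 (15.6 to 45.5), above Cxcl12 in 6 of 6 libraries with no overlap of their ranges. Cxcl12 followed with 5.97 (3.68 to 9.59), Cxcl1 with 5.04 (0.299 to 7.79), Cxcl10 with 3.97 (2.18 to 4.63), Ccl5 with 3.34 (2.17 to 9.64), Cxcl2 with 1.55 (0.136 to 6.31) and Ccl2 with 0.963 (0.533 to 1.95). From Cxcl12 down to Ccl2 each neighbour overlapped the next in range, and the higher of the pair led in 3 to 5 of 6 libraries. Ccl2 was above Cxcl16, at 0.232 (0.123 to 0.526), in 6 of 6 libraries without overlap, and Cxcl16 overlapped Ccl7, at 0.145 (0 to 0.701). Only neighbours in this order were compared, and genes further apart could overlap, as Ccl7 did with Ccl2.

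The genes most like each member in profile were sought by the root mean square difference of log2 CPM, each gene centred on its own mean over the 6 libraries. For Cxcl2 these were Trem1, Lilr4b and Clec4d, receptors of myeloid cells, at 0.39, 0.43 and 0.43 on the log2 scale. Trem1 was at 1.09, 5.18 and 0.187 CPM and at 3.29, 0.338 and 4.70 CPM, which ranks the 6 libraries in the same order as Cxcl2 did. Nearest to Cxcl1 were Myl2, Myot and Eef1a2 (0.27, 0.33 and 0.34), all listed at 0 counts in the 2 libraries where Cxcl1 was low. Cxcl1 and Cxcl2 were each other's nearest member, at 1.10, but Cxcl1 ranked only 193 among all tested genes by nearness to Cxcl2. The nearest genes of the remaining members were Map3k12, Kcnn2 and Rab13 for Cxcl10, Slc25a22, Tmie and Pyurf for Cxcl12, Egln3, Gm30429 and Wdr93 for Cxcl16, Pparg, Tekt2 and Nfil3 for Ccl2, Arhgef10l, Itga2b and Nr2c2ap for Ccl5, and 2410016O06Rik, Tnfrsf1a and Slc50a1 for Cx3cl1, at differences of 0.05 to 0.26. Egln3, a prolyl hydroxylase induced through HIF, was at 21.1, 16.3 and 47.8 CPM and at 18.7, 28.2 and 34.9 CPM.

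Of 28 other chemokine ligands, 7 had 0 counts in all libraries and 10 were tested. None of these 10 was called by edgeR with all libraries, with 2 positive and 8 negative estimates and a median log2 fold change of -0.72. Without VHL-KO replicate 4 the median was -0.10 and 1 of the 10 was called lower, beside 7.14% of all tested genes. Ccl28, a mucosal chemokine made by epithelia, had the most counts among these 10 and was named after its values were seen. It was at 126, 48.0 and 6.45 CPM under the VHL-KO label and at 12.6, 13.7 and 31.7 CPM under the VHL-KO;SETD2-KO label. VHL-KO replicates 1 and 2 were above all other libraries and VHL-KO replicate 4 below them, with a log2 fold change of -1.63 (edgeR adjusted p = 0.625) and, without VHL-KO replicate 4, of -2.17 (past the unadjusted threshold, edgeR adjusted p = 0.127).

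Receptors for the members were measured in the same libraries. Of 18 conventional receptors, 8 were tested, 5 with positive and 3 with negative estimates. Beside 2.65% of all tested genes, 1 of these 8 was called higher at the unadjusted threshold. This was Cxcr2, the receptor of Cxcl1 and Cxcl2 on neutrophils, with 3, 6 and 0 counts under the VHL-KO label and 25, 17 and 21 under the VHL-KO;SETD2-KO label. Their ranges did not overlap, with levels of 0.182, 0.555 and 0 CPM against 1.33, 0.957 and 1.32 CPM, beside 9.62% of all tested genes higher without overlap. The log2 fold change of Cxcr2 was 2.27 (SE 0.88, edgeR adjusted p = 0.625) with all libraries and 1.76 (edgeR adjusted p = 0.202) without VHL-KO replicate 4. Neutrophil markers moved alongside it, with 2 of 3 tested called higher at the unadjusted threshold, beside 2.65% of all tested genes. The called markers were S100a8 (log2 fold change 1.48, edgeR adjusted p = 0.625) and S100a9 (1.76, edgeR adjusted p = 0.625). Of these, S100a8 (1.15) was no longer called without VHL-KO replicate 4. Their list of 6 summed to 4.49 to 6.94 CPM under the VHL-KO label and 7.83 to 17.1 CPM under the VHL-KO;SETD2-KO label, while Ly6g and Mpo were at 0 counts in all libraries, and the part of these cells in the Cxcr2 value was not tested.

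Cxcr4 and Ackr3, the pair that binds Cxcl12, were well above the floor in all libraries. Cxcr4 was at 9.21, 23.1 and 2.15 CPM and at 23.5, 6.53 and 20.1 CPM, low in the same 2 libraries as Cxcl1. Ackr3 was at 40.8, 33.7 and 38.4 CPM and at 30.4, 27.5 and 30.7 CPM, lower without overlap, as were 11.0% of all tested genes. Its log2 fold change was -0.35 (SE 0.35, edgeR adjusted p = 0.745). Cx3cr1, on macrophages and monocytes, was at 2.49, 7.22 and 6.92 CPM and at 2.82, 2.37 and 3.20 CPM (log2 fold change -0.98, edgeR adjusted p = 0.625). Ccr2 was at 5.27, 5.64 and 1.22 CPM and at 8.29, 2.87 and 9.47 CPM. Ccr1 ranged from 0.468 to 2.70 CPM and was not called. Cxcr3 and Cxcr6 were not tested, with at most 1.03 and 1.18 CPM.

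Of the proteases that process chemokines, 0 of 3 were called. Adam10, the constitutive sheddase of Cx3cl1 and Cxcl16, was at 86.9, 88.3 and 9.54 CPM and at 103, 71.9 and 92.5 CPM. Adam17, the inducible sheddase, was at 28.9, 38.9 and 3.93 CPM and at 43.2, 23.7 and 43.0 CPM. Both were lowest in VHL-KO replicate 4, the library in which Cx3cl1 and Cxcl16 were highest. Dpp4, which trims Cxcl10, Cxcl12 and Ccl5 at their amino terminus, was at 116, 145 and 17.3 CPM and at 256, 165 and 244 CPM. It was higher without overlap, as were 9.62% of all tested genes (log2 fold change of Dpp4 1.26, SE 0.71, edgeR adjusted p = 0.625). Without VHL-KO replicate 4 its log2 fold change was 0.76 (past the unadjusted threshold, edgeR adjusted p = 0.182). In that fit 8.29% of all tested genes were called higher.

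**Figure D4:**
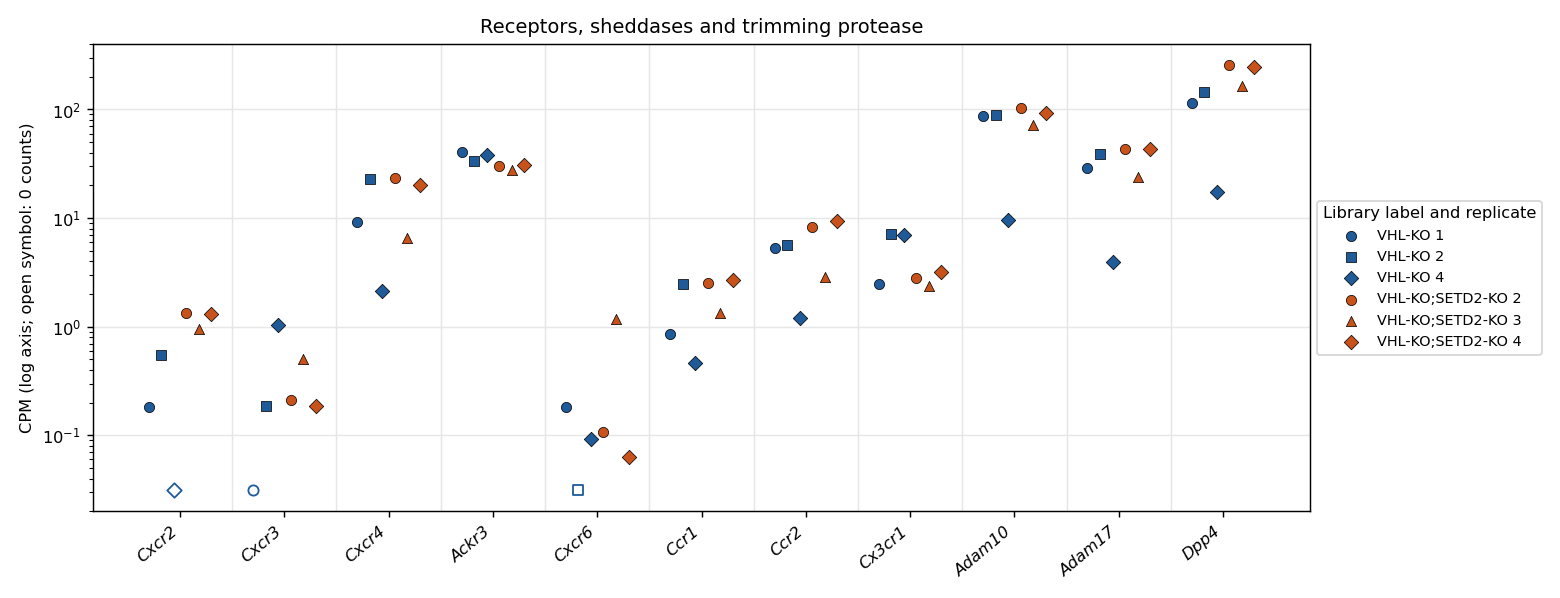
Each symbol is the level in 1 library, in CPM on a log axis, of a receptor for the members, a sheddase (Adam10, Adam17) or Dpp4, with libraries labelled VHL-KO in blue, those labelled VHL-KO;SETD2-KO in orange, and open symbols for 0 counts. Cxcr2 and Dpp4 are higher and Ackr3 lower, without overlap, in the orange libraries, beside 9.62% of all tested genes higher and 11.0% lower without overlap. VHL-KO replicate 4 is the lowest library for Adam10, Adam17 and Dpp4.

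Upstream regulators and other cytokines gave few calls. Of 14 NF-kB subunits and feedback inhibitors, 0 were called, with 7 positive and 7 negative estimates and a median log2 fold change of -0.02. The median was 0.10 without VHL-KO replicate 4, and 1, the IKK subunit gene Chuk, was called lower at the unadjusted threshold (log2 fold change -0.88). Without that library 7.14% of all tested genes were called lower. Tnfaip3, a feedback inhibitor, was at 19.3, 29.2 and 2.99 CPM and at 25.9, 9.46 and 30.6 CPM, low in the 2 libraries with little Cxcl1. Rel, Nfkbiz and Nfkb1 were likewise lowest in these 2 libraries. For Nfkb1 the margin was small, with 30.4 CPM in VHL-KO;SETD2-KO replicate 3 against 30.7 in VHL-KO replicate 1. The list was split, since Rela, Relb, Nfkb2, Nfkbib, Nfkbie and Bcl3 were highest in VHL-KO replicate 4. Rela was at 31.5, 30.6 and 73.1 CPM and at 45.8, 34.7 and 46.0 CPM. Of 12 inflammatory cytokines, 6 were tested and 1 was called at the unadjusted threshold, Il34, a ligand of the macrophage receptor Csf1r made by tubules, which was lower with 30.5, 19.4 and 71.0 CPM against 15.1, 8.67 and 14.9 CPM (log2 fold change -1.64, SE 0.56, edgeR adjusted p = 0.625). By that threshold 4.68% of all tested genes were called lower. Il1b was at 3.58, 11.3 and 1.96 CPM and at 6.22, 3.21 and 9.16 CPM, and was not called. Il1a and Il6 reached at most 1.39 and 0.266 CPM and were not tested, and Tnf and Il13 were at 0 counts in all libraries. By RT-qPCR the study reported Il1a and Il6 as significantly higher in VHL-KO;Setd2-KO mice.

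Markers of the cells that make or receive chemokines also moved between the labels and libraries. Of 8 proximal tubule markers, 4 were called lower (Slc34a1, Slc22a6, Aqp1 and Hnf4a, log2 fold changes from -1.93 to -1.04) and their summed level was 11571 to 21910 CPM under the VHL-KO label against 4950 to 7142 CPM. Of 5 podocyte markers, 3 were called higher, among them Nphs1 (1.09) and Wt1 (1.495). Of 10 macrophage markers, 2 were called lower, C1qa (-2.08) and C1qb (-2.02), and the summed level was 123, 335 and 356 CPM against 233, 92.2 and 275 CPM. Of 7 endothelial markers 0 were called, with 6 positive estimates and sums of 1214 to 1804 CPM against 1416 to 4285 CPM, and 0 of 5 tested T cell markers and 0 of 6 tested fibroblast and pericyte markers were called. Among 8 markers of the thick limb, distal tubule and collecting duct, 1 was called higher (Calb1, 1.87), and among 9 tubular injury markers Spp1 (1.88) was called higher and Havcr1 (-2.22) and Krt8 (-1.64) lower. The calls of C1qa (-0.93), C1qb (-1.10), Calb1 (1.57), Spp1 and Krt8 (-0.58) were lost without VHL-KO replicate 4. In that fit 6 proximal tubule markers were called lower, and 4 podocyte, 3 distal, 2 tubular injury, 1 endothelial and 1 fibroblast and pericyte markers were called higher, with 1 macrophage marker (Adgre1) and 1 tubular injury marker (Havcr1) lower. That fit called 8.29% of all tested genes higher and 7.14% lower. All calls with the 6 libraries were at the unadjusted threshold, with edgeR adjusted p of 0.625, beside 2.65% of all tested genes called higher and 4.68% lower. The part of the cell makeup in the chemokine values was not tested.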

How the data were processed

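RNA-seq was analysed for PTECs of 6 mice, 3 per genotype label. Per the labels, total RNA was extracted with TRIzol and its integrity checked. The study's methods give directional, paired-end Illumina libraries, and the submitters' processing notes list HISAT2 2.0.4 and GRCm38. The counting program, annotation and strand setting are not given in the sources used here. The authors deposited whole-number counts per gene symbol, without normalization. Per-sample columns not used numbered 0.

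From these counts, CPM (TMM-scaled) and edgeR 4.0.16 quasi-likelihood tests (R 4.3.3) were computed on the 14611 genes that filterByExpr kept, with the label as the only factor and Benjamini-Hochberg adjustment over all of them. Thresholds were p under 0.05 and a 1.5-fold change. Log2 CPM used a prior count of 2. Intervals are at 95%. The alternatives were DESeq2 1.42.0, limma 3.58.1, other scalings and filters, a 2-fold threshold, a replicate block and each library left out. Members and gene lists were chosen with earlier results of these data known. The genes named are the members, their receptors and processing proteases, the cytokines with primers in the study, list genes past the unadjusted threshold, and the 3 genes nearest each member in profile. Other genes, such as Ccl28, were named after their values were seen. Positions and exon lengths came from GENCODE M21, and promoters from RefSeq (GRCm38.p6), which matched 5 of the 9 members by symbol. On simulated counts at the libraries' own dispersion (0.272), edgeR recovered 24 of 200 genes changed 4-fold at an adjusted p under 0.05, and 195 at a dispersion of 0.05, in each case over 14611 genes. By the unadjusted rule at the dispersion of 0.272 it recovered 172 of the 200, but called 797 genes in all. Samples with the same replicate number are not said to be paired. Some listed genes are not reported here by name.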

Additional observations from a re-analysis of the deposited data

How the results depend on the processing

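No chemokine gene passed the unadjusted threshold in 14 of 17 alternatives. One of these, a 2-fold threshold on the same fit, could not have called a member, since none had passed 1.5-fold. Exceptions were limma-voom with quality weights (2 members past the unadjusted and 2 past the adjusted threshold, Cxcl12 and Cx3cl1) and, without VHL-KO replicate 4, edgeR and DESeq2 (1 member each, Cx3cl1, unadjusted). The median log2 fold change of the members was -0.22, 0.00209 with limma-voom and 0.10 with quality weights, and -0.48 to -0.05 when each library was left out. Members called stayed at 0 to 1 (unadjusted) and 0 (adjusted) in those fits.

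Over all genes, 387 were higher, 684 lower and 1 past the adjusted threshold. Quality weights gave 2124, 1527 and 2657, no filter gave 634 higher and 2 adjusted, DESeq2 gave 1133 lower and 25 adjusted, and at least 10 counts in every library gave 0 adjusted. DESeq2 without VHL-KO replicate 4, added after seeing the data, gave 1425, 1093 and 1215. Leaving out each library gave 179 to 1243 higher, 206 to 1078 lower and 0 to 1 adjusted.

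The replicate numbers 2 and 4 are shared by both labels, but same-numbered samples are not said to be paired, and their deviations correlated at 0.16 and -0.32. The replicate block gave 93 higher and 54 lower and changed no member's call, with Cxcl1 at 2.12 and Cxcl2 at 1.02. The crossed pairing, added after seeing the data because the pooled correlation was -0.14, gave 143 and 85.

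The direction changed in these fits, with log2 fold changes given and the cause not tested. With limma-voom, Cxcl1 was 0.0321, Cxcl2 0.24 and Cx3cl1 0.12. With quality weights, Cxcl2 was 0.14, Cxcl16 0.29, Ccl2 0.0604 and Cx3cl1 0.68. Cx3cl1 was 0.0395 without mitochondrial genes in the library size, 0.0562 without a filter and 0.0244 with at least 10 counts in every library. Without VHL-KO replicate 4, Cxcl16 was 0.37, Cx3cl1 0.62 and Vhl 0.12 in edgeR, and 0.38, 0.61 and 0.12 in DESeq2. With each library left out, the ranges were -0.64 to 0.69 for Cxcl1 (positive without VHL-KO replicate 1, 0.69, or VHL-KO;SETD2-KO replicate 3, 0.45), -1.04 to 1.91 for Cxcl2 (1.91 without VHL-KO replicate 2, 0.03 without VHL-KO;SETD2-KO replicate 3), -0.72 to 0.37 for Cxcl16 (0.16 without VHL-KO;SETD2-KO replicate 2), -0.58 to 0.39 for Ccl2 (0.39 without VHL-KO replicate 2), -0.28 to 0.62 for Cx3cl1 (0.11 and 0.01 without VHL-KO;SETD2-KO replicates 3 and 4) and -0.42 to 0.12 for Vhl. Cxcl10 stayed positive and Cxcl12 and Ccl5 negative in each of 15 alternatives. Fold changes of the members were not taken from the crossed pairing. Depth limits Ccl7, Cxcl16 and Ccl2, which had 14, 75 and 104 counts over all libraries.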
